A study of Macaca mulatta with 24 samples.

Results

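The genes described here are those of calcium and vitamin D absorption in the jejunum of rhesus macaques (Macaca mulatta) after total-body irradiation (TBI): S100G, TRPV6, VDR, ATP2B1 and CYP24A1. Their probes were found by the gene symbol that the authors' normalized jejunum table gives each probe. Of these 5 genes, 3 had a probe under that symbol, with 1 probe for S100G (A_01_P001268), 1 for VDR (A_01_P1732296) and 3 for ATP2B1 (A_01_P013414, A_01_P1681971 and A_01_P1733506). TRPV6 and CYP24A1 had none and are not analysed here. These 5 probes stand among 43603 probes and 16094 gene symbols. The genes were chosen by the measured values of S100G, namely its low level on day 4 after 7.4 Gy and its higher level on day 7 than on day 4, so for S100G the differences from control and between days are given with their standard errors (SE) as a description, with no test.

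Calcium crosses the absorptive cells of the small bowel by entering through the apical channel TRPV6, being carried through the cytosol by small binding proteins, and leaving at the base through the calcium pump ATP2B1. S100G, also called calbindin-D9k, is the main calcium-binding carrier of these cells in the upper small bowel and is known as one of the strongest targets of vitamin D there. Active vitamin D acts through its nuclear receptor VDR, which switches on the transport genes, and CYP24A1 is the enzyme that breaks active vitamin D down again.

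The study collected pieces of jejunum from 24 young-adult male macaques, and RNA of each was hybridised to 1 Agilent one-colour array. The 4 control animals were sham-irradiated and carry the day 4 label. All other animals received uniform gamma radiation from a cobalt-60 source in one exposure. Of these, 4 had 6.7 Gy and 4 had 7.4 Gy and were sampled on day 4, 4 and 4 were sampled on day 7, and 2 and 2 on day 12. The same 4 controls serve all 6 comparisons with control, so these comparisons are not independent of each other, and no controls of day 7 or day 12 were used here. Each value below is a level, the log2 of the processed signal minus the log2 of the 75th percentile of the same array, so that a difference of 1 is a factor of 2 and levels of different probes cannot be set against each other.

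The signal at the 75th percentile ran from 505 to 1069 over the arrays, and no spot was saturated. An array detected between 39.4% and 87.7% of its probes, where detected means well above background by the scanner software, and the 4 arrays of slide 5 (1 each of 6.7 Gy day 4, 7.4 Gy day 4, 7.4 Gy day 7 and 7.4 Gy day 12) had the lowest share, 39.4% to 49.6%. The number of arrays limits the precision. All 5 probes described here were well above background on all 24 arrays and were among the 28168 probes tested.

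S100G was lower on every day 4 array of both doses than on every control array, was higher on day 7, with 4 of the 8 arrays within the control range and 4 below it, and was again below every control on day 12. The control levels of S100G were 9.07, 7.85, 8.23 and 9.22, with a mean of 8.59 ± 0.66 (SD, n = 4). On day 4 after 6.7 Gy they were 4.93, 6.02, 5.48 and 4.62, with a mean of 5.26 ± 0.62 (SD, n = 4). On day 4 after 7.4 Gy they were 3.55, 5.85, 5.40 and 4.51, with a mean of 4.83 ± 1.02 (SD, n = 4). The highest day 4 array, at 6.02, thus lay below the lowest control array, at 7.85. The mean differed from control by −3.33 ± 0.39 (SE) after 6.7 Gy, a 10.1-fold lower level, and by −3.76 ± 0.51 (SE) after 7.4 Gy, a 13.6-fold lower level. Over all probes tested the median change was −0.06 and −0.08 in these comparisons, and 10 probes had a larger fall than S100G after 6.7 Gy and 6 after 7.4 Gy. No overlap with control in the lower direction was met by 7.66% of all probes tested after 6.7 Gy and by 10.1% after 7.4 Gy. In whole tissue, fewer cells of a type and less RNA per cell cannot be told apart.

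On day 7 S100G was high again. After 6.7 Gy the levels were 8.71, 8.95, 7.62 and 7.61, with a mean of 8.22 ± 0.71 (SD, n = 4), and after 7.4 Gy they were 8.29, 7.31, 9.14 and 6.40, with a mean of 7.79 ± 1.19 (SD, n = 4). Both groups overlapped the control arrays, at −0.37 ± 0.41 (SE) and −0.80 ± 0.57 (SE) from the control mean. The first was −0.62 without control replicate 2 and −0.16 without control replicate 4, and the second was −1.26 without 7.4 Gy day 7 replicate 3 and −0.34 without replicate 4. Every day 7 array lay above every day 4 array of its dose, which held for 7.21% of all probes tested after 6.7 Gy and 5.83% after 7.4 Gy, and the difference in the mean was 2.96 ± 0.58 (SE) at either dose, which is 7.79-fold after 6.7 Gy and 7.78-fold after 7.4 Gy.

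On day 12 each dose had only 2 animals. After 6.7 Gy the S100G levels were 6.23 and 4.21, with a mean of 5.22 ± 1.43 (SD, n = 2), and after 7.4 Gy they were 7.30 and 7.22, with a mean of 7.26 ± 0.061 (SD, n = 2). All 4 of these arrays lay below the lowest control. The difference from control was −3.37 ± 0.62 (SE), or 10.3-fold lower, after 6.7 Gy and −1.33 ± 0.41 (SE), or 2.51-fold lower, after 7.4 Gy. No overlap with control in the lower direction was met by 7.43% and 9.5% of all probes tested here. Against day 4 of the same dose, the day 12 mean differed by −0.04 ± 0.71 (SE) after 6.7 Gy, with arrays that overlapped, and by 2.43 ± 0.71 (SE) after 7.4 Gy, with both day 12 arrays above all 4 of day 4, as for 15.8% of all probes tested. The 6.7 Gy value at day 12 rests on 2 arrays that are far apart, and against control it was −4.38 without replicate 1 and −2.36 without replicate 2.

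**Figure D1:**
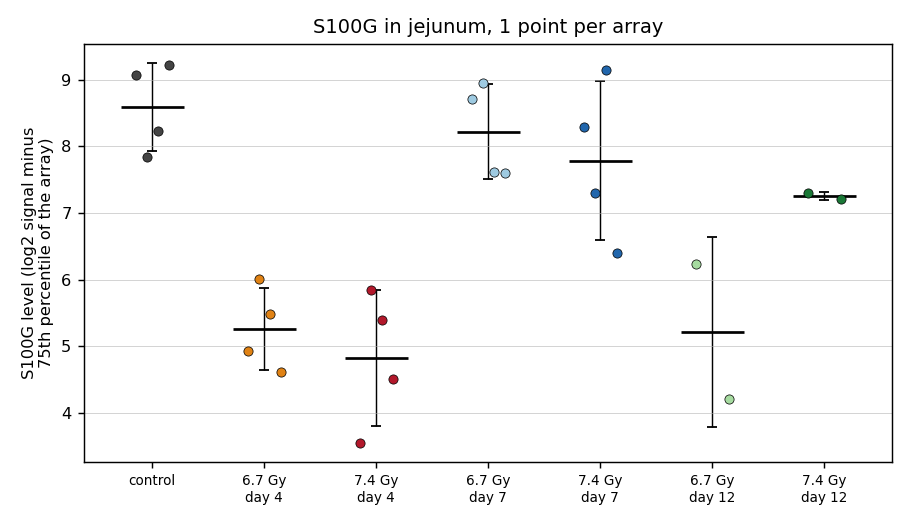
Level of S100G on each array (y axis, log2 processed signal minus the log2 75th percentile of the array) in the 7 groups (x axis), with the bar at the group mean and whiskers of 1 SD. The 8 day 4 arrays lie between 3.55 and 6.02, below the 4 control arrays at 7.85 to 9.22, and the 8 day 7 arrays lie between 6.40 and 9.14.

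Ordered by mean, control stood highest for S100G at 8.59, followed by 6.7 Gy day 7 at 8.22, 7.4 Gy day 7 at 7.79, 7.4 Gy day 12 at 7.26, 6.7 Gy day 4 at 5.26, 6.7 Gy day 12 at 5.22 and 7.4 Gy day 4 at 4.83. The arrays of each pair of neighbours in this order overlapped, except between day 12 after 7.4 Gy and day 4 after 6.7 Gy.

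Between doses, the S100G level after 7.4 Gy minus that after 6.7 Gy was −0.43 ± 0.58 (SE) on day 4 and −0.44 ± 0.58 (SE) on day 7, with arrays that overlapped. The choice of S100G had used the 7.4 Gy levels of these days, so both are given with no test. On day 4 it was −0.77 without 7.4 Gy replicate 2 and −0.0096 without replicate 1, and on day 7 it ran from −0.89 to 0.027 with 1 array left out. On day 12 both arrays of 7.4 Gy were higher than both of 6.7 Gy, by 2.04 ± 0.82 in the mean (95% interval 0.32 to 3.76 before adjustment, limma adjusted p = 0.995). The 6.7 Gy arrays of day 12 were on slides 3 and 4, and those of 7.4 Gy on slides 5 and 6. These slide pairs were scanned on different days, so dose on day 12 cannot be told apart from slide or scan day. Of all probes tested, 12.3% were higher without overlap in this comparison, and the S100G difference was 3.05 without 6.7 Gy day 12 replicate 1 and 1.03 without replicate 2. Of all probes tested, 0% were called between doses on day 4, 0% on day 7 and 0% on day 12, where called means a limma adjusted p under 0.05 with at least a 2-fold difference. At an unadjusted p under 0.05 the shares were 2.38%, 6.08% and 4.92%, and the methods' t-test called 0.

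The arrays lay on 6 slides, and the 4 controls were the first array of slides 1 to 4, so the difference of S100G from control was also taken within each slide that held both. On day 4 it was −3.58 and −3.23 for the 6.7 Gy arrays of slides 1 and 2, and −4.67 and −3.38 for the 7.4 Gy arrays of slides 3 and 4. On day 7 it was −0.36, 1.11, −0.61 and −1.62 on slides 1 to 4 for 6.7 Gy, and 0.08 and −1.45 on slides 1 and 2 for 7.4 Gy. On day 12 it was −2.0 and −5.01 on slides 3 and 4 for 6.7 Gy, while the 7.4 Gy arrays shared no slide with a control. The day 4 fall of S100G was thus about as large within slides as over all arrays. With the arrays of slide 5 left out, it was −3.22 after 6.7 Gy and −3.95 after 7.4 Gy.

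The vitamin D receptor VDR showed small differences that did not pass the test at any dose or day. Its control levels were 0.55, 0.34, 0.52 and 0.54, with a mean of 0.49 ± 0.10 (SD, n = 4). The 6.7 Gy arrays of day 4 had 0.44, −0.10, 0.45 and −0.08, and the 7.4 Gy arrays had −0.42, 0.29, 0.51 and −0.21. Some day 4 arrays thus stood below all controls at each dose, but others stood among them. The mean VDR level differed from control by −0.31 ± 0.17 (SE, limma adjusted p = 0.341) after 6.7 Gy and by −0.44 ± 0.21 (SE, limma adjusted p = 0.238) after 7.4 Gy. On day 7 VDR was 0.83, 0.74, 0.38 and 0.28 after 6.7 Gy and 0.31, 0.59, 0.47 and −0.18 after 7.4 Gy, which is 0.07 ± 0.16 (SE) and −0.19 ± 0.19 (SE) from control. The day 12 levels were 0.38 and 0.14 for 6.7 Gy and 0.44 and 0.48 for 7.4 Gy, at −0.22 ± 0.17 (SE) and −0.03 ± 0.16 (SE) from control. VDR overlapped the control arrays in all 6 comparisons.

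The calcium pump ATP2B1 was measured by 3 probes, and all of them had a lower mean on day 4, but 1 probe at 1 dose passed both limits. For probe A_01_P1733506 the control levels were 1.43, 0.66, 1.15 and 1.25, with a mean of 1.13 ± 0.33 (SD, n = 4). The 6.7 Gy arrays of day 4 had 0.31, 0.41, 0.26 and −0.07 and those of 7.4 Gy had −0.20, 0.02, 0.38 and 0.04. All 8 day 4 arrays lay below the lowest control. This probe fell by 1.06 ± 0.20 (SE, 2.09-fold, limma adjusted p = 0.0243) after 7.4 Gy. Its difference of −0.90 ± 0.20 (SE, 1.86-fold, limma adjusted p = 0.0431) after 6.7 Gy passed the limit on p and not that on the fold. Within slides the difference was −1.17 and −0.74 after 6.7 Gy and −1.35 and −1.23 after 7.4 Gy. The call at 7.4 Gy was lost in 5 of the 8 fits that left out 1 array (control replicate 1, 3 or 4, or 7.4 Gy day 4 replicate 1 or 2), in which the difference stayed between −1.06 and −0.96, and with the position on the slide as a block it was −0.80 (limma adjusted p = 0.484).

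The other ATP2B1 probes did not pass. A_01_P013414 had control levels of 2.44, 1.54, 1.84 and 2.22, and day 4 levels of 1.32, 1.42, 1.56 and 1.09 after 6.7 Gy and 0.82, 1.04, 1.39 and 1.31 after 7.4 Gy. All of its 7.4 Gy arrays lay below the controls, whereas 1 of its 6.7 Gy arrays did not. The differences were −0.66 ± 0.21 (SE, limma adjusted p = 0.121) and −0.87 ± 0.23 (SE, limma adjusted p = 0.0597). For A_01_P1681971 they were −0.54 ± 0.19 (SE, limma adjusted p = 0.141) after 6.7 Gy, with no overlap, and −0.61 ± 0.20 (SE, limma adjusted p = 0.109) after 7.4 Gy, with overlap. The 3 probes share their target gene and are not separate evidence.

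On the later days no ATP2B1 probe was called. Their means stood nearer to control than on day 4 of the same dose, except that of A_01_P1681971 on day 12 after 6.7 Gy at −0.66. On day 7 A_01_P1733506 stood at 0.81, 0.76, 0.47 and 0.51 for 6.7 Gy and at 1.02, 0.24, 0.81 and 0.39 for 7.4 Gy, at −0.49 ± 0.19 (SE) and −0.51 ± 0.23 (SE) from control. The day 12 levels were 0.50 and 0.08 for 6.7 Gy and 0.99 and 0.55 for 7.4 Gy, at −0.84 ± 0.26 (SE, limma adjusted p = 0.627) and −0.36 ± 0.27 (SE, limma adjusted p = 0.722). Both day 12 arrays of 6.7 Gy lay below all controls for this probe and for A_01_P1681971. The other probes of ATP2B1 differed from control on day 7 and day 12 by between −0.66 and −0.13.

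**Figure D2:**
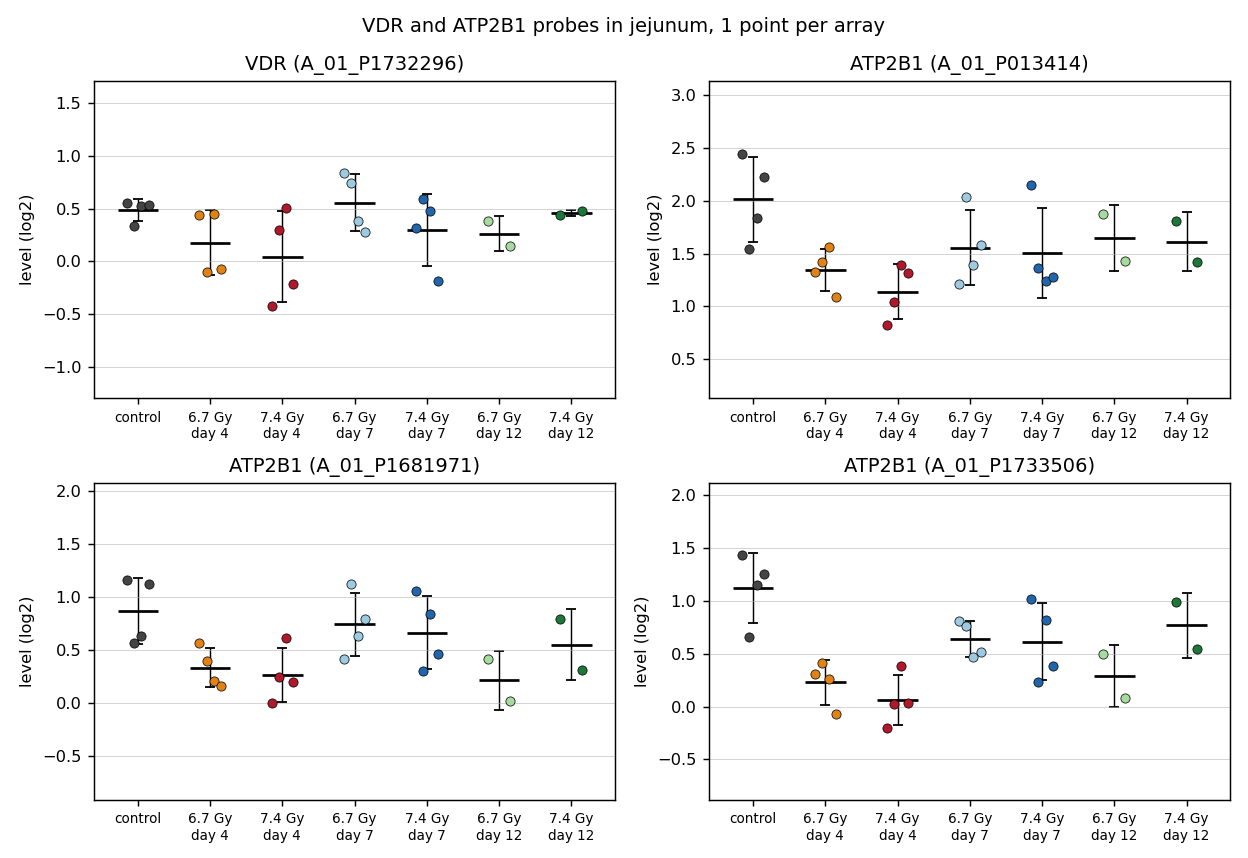
Levels of the VDR probe and the 3 ATP2B1 probes on each array (y axis, level in log2 units as for S100G) in the 7 groups (x axis), with the bar at the group mean and whiskers of 1 SD. The day 4 arrays of ATP2B1 probe A_01_P1733506 all lie below its 4 control arrays, while VDR overlaps control in every group.

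Of the 4 probes of VDR and ATP2B1, 0 were called on day 4 after 6.7 Gy and 1, lower, after 7.4 Gy, where 1.98% and 2.6% of all probes tested were called. On day 7, 0 of the 4 were called at each dose, against 0.0639% of all probes after 6.7 Gy and 0.288% after 7.4 Gy, and on day 12 again 0, against 0.0071% and 0.00355%. These counts are from limma, and at an unadjusted p under 0.05 they were 3 and 3 on day 4, 1 and 0 on day 7, and 2 and 0 on day 12, for 6.7 Gy and 7.4 Gy in turn. The share of all probes tested under that limit was 21.2% and 24.5% on day 4, 10.5% and 16.4% on day 7, and 7% and 8.41% on day 12. The methods' t-test after adjustment called 0 of the 4 in each of these comparisons. Without overlap with control, 2 of the 4 probes were lower on day 4 at each dose, beside 7.66% of all probes after 6.7 Gy and 10.1% after 7.4 Gy, and 2 on day 12 after 6.7 Gy, beside 7.43%.

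Between days and doses none of the 4 probes of VDR and ATP2B1 was called. From day 4 to day 7 their means differed by 0.21 to 0.41 after 6.7 Gy (smallest limma adjusted p = 0.239) and by 0.26 to 0.55 after 7.4 Gy (smallest limma adjusted p = 0.111). From day 4 to day 12 the differences ran from −0.12 to 0.30 after 6.7 Gy (smallest limma adjusted p = 0.604) and from 0.29 to 0.71 after 7.4 Gy (smallest limma adjusted p = 0.101). All 4 means were thus higher on day 7 than on day 4 at each dose, and none of these differences passed after adjustment over all probes. The share of all probes tested that limma called from day 4 to day 7 was 1.55% at the lower and 1.64% at the higher dose, and from day 4 to day 12 it was 0.951% and 2.42%. At an unadjusted p under 0.05, 0 and 1 of the 4 passed for day 7, beside 21.1% and 20.1% of all probes, 0 and 1 for day 12, beside 17.7% and 19.8%, and 0 between doses on each day, and the methods' t-test called 0 in all of these. The number of all probes that limma called between days depended on the model. It was 436 and 463 for day 7 and 268 and 681 for day 12 in the model of the 7 groups. With only the arrays of both groups it was 149 and 12 for day 7 and 0 and 4 for day 12.

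**Figure D3:**
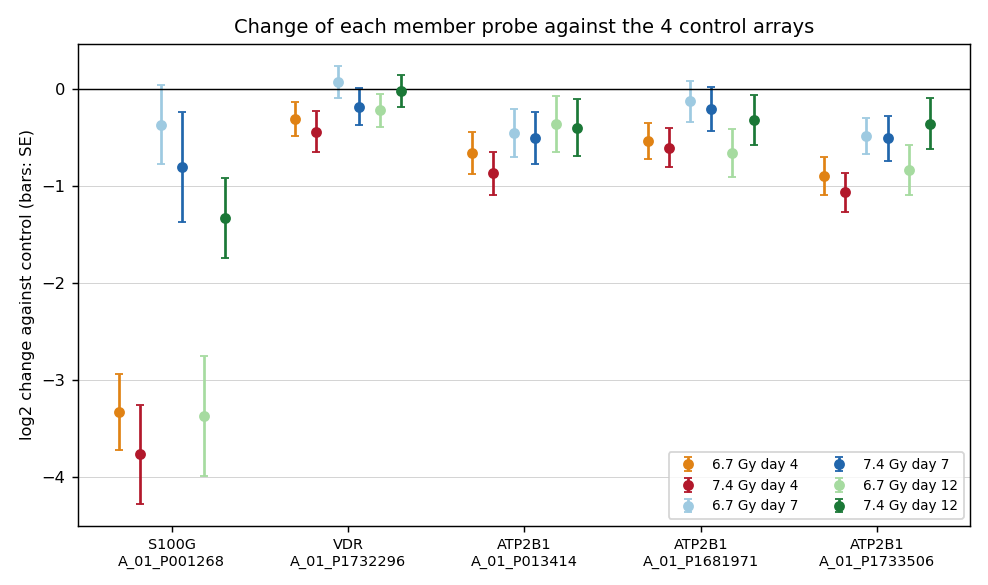
Difference from the 4 control arrays in log2 units (y axis) for each of the 5 probes (x axis) in the 6 irradiated groups, with whiskers of 1 SE. S100G stands at −3.33 and −3.76 on day 4 and at −3.37 on day 12 after 6.7 Gy, while the VDR and ATP2B1 probes lie between −1.06 and 0.07.

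The array also held 36 of 51 other genes listed for this system, and 29 of them were tested. Each of these genes, and each gene of the cell and region lists below, was read by 1 probe. Where a gene had several probes, that of highest mean level was used, unlike for ATP2B1 above, where all 3 are given. Genes with several probes included ATP2B4 and ATP2A3 with 4 each, PRLR with 5 and ESR1 with 3. Whether their other probes give the same result was not tested. On day 4, 1 of the 29 (3.45%) was called lower at each dose and none higher, near the 1.98% and 2.6% called over all probes tested, with a median difference of −0.09 after 6.7 Gy and −0.18 after 7.4 Gy beside −0.06 and −0.08 over all probes. By role, with CYP3A4 counted under both breakdown and targets, the 29 were 2 partners of calcium entry, 3 genes of calcium export and stores, 6 partners and coactivators of VDR, 4 genes of vitamin D synthesis, transport and breakdown, 5 further intestinal targets of VDR, 5 phosphate and magnesium transporters and 5 hormone and sensor genes of calcium balance. Of further cytosolic calcium carriers none was tested. The gene called at both doses was the VDR target SLC30A10, an exporter of manganese at the cell surface. Of its 2 probes on the array, only that of higher mean level was read, and the other is not described here.

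SLC30A10 (A_01_P1769111) stood at 0.17 in control, with arrays from −0.14 to 0.59. On day 4 its mean was −1.53 after 6.7 Gy, with arrays from −2.18 to −1.16, and −1.64 after 7.4 Gy, with arrays from −1.94 to −1.06. No day 4 array reached the control range. It fell by 1.69 ± 0.27 (SE, 3.24-fold, limma adjusted p = 0.0165) after 6.7 Gy and by 1.80 ± 0.25 (SE, 3.49-fold, limma adjusted p = 0.0102) after 7.4 Gy. Its mean was −0.70 for 6.7 Gy and −1.59 for 7.4 Gy on day 7, and −1.46 and −1.14 on day 12. As a description over the 24 arrays, its correlation with S100G was 0.687 (0.588 with group means taken off). The call after 6.7 Gy was lost by the methods' t-test (adjusted p = 0.0584) and with the replicate block (limma adjusted p = 0.0732), at the same difference. With no filter on dim probes the differences were the same and the limma adjusted p was 0.0653 and 0.0527 over the larger number of probes. With the position on the slide as a block, where all controls lie at position 1, they were −1.36 (limma adjusted p = 0.141) and −1.15 (limma adjusted p = 0.562).

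**Figure D4:**
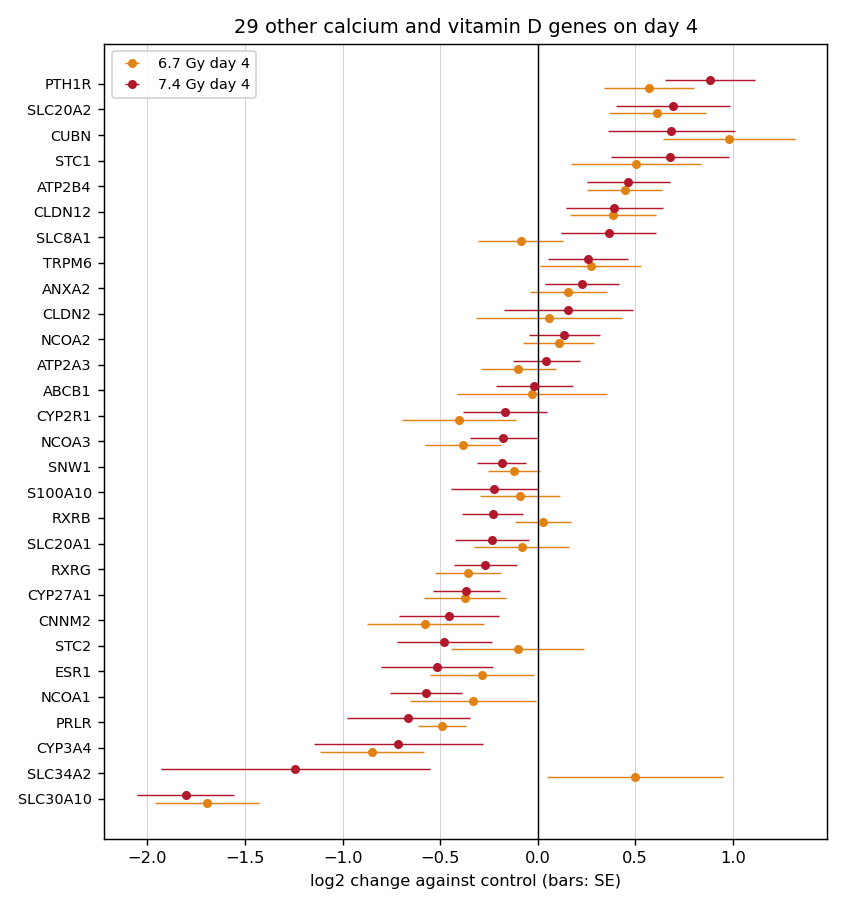
Difference from control on day 4 in log2 units (x axis, whiskers of 1 SE) for the 29 other calcium and vitamin D genes tested (y axis), at 6.7 Gy and 7.4 Gy. SLC30A10 lies lowest at −1.69 and −1.80, and it is the only gene of the 29 that was called.

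On day 7 and day 12 limma called 0 of the 29 against control at either dose. Of all probes tested it called 0.0639% and 0.288% on day 7 and 0.0071% and 0.00355% on day 12, for the lower and the higher dose. At an unadjusted p under 0.05 the count of the 29 was 4 and 7 on day 7, where 10.5% and 16.4% of all probes passed, and 4 and 1 on day 12, where 7% and 8.41% passed, and the methods' t-test called 0. The median difference of the 29 was −0.07 and −0.33 on day 7 and 0.06 and −0.18 on day 12. Between days, 1 gene was called, the phosphate transporter SLC20A2 (A_01_P009293), whose mean was 0.06 on day 4 and −1.46 on day 12 after 7.4 Gy. It fell by 1.53 ± 0.34 (SE, 2.88-fold, limma adjusted p = 0.0228), where 2.42% of all probes were called. At an unadjusted p under 0.05, 8 and 12 of the 29 passed from day 4 to day 7, for 6.7 Gy and 7.4 Gy, beside 21.1% and 20.1% of all probes, and 5 and 6 from day 4 to day 12, beside 17.7% and 19.8%. SLC20A2 was well above background on 1 of the 2 day 12 arrays, and the call was lost without 7.4 Gy day 4 replicate 1 (−1.31) or 7.4 Gy day 12 replicate 1 (−0.96). It was also lost with slide (−1.40, limma adjusted p = 0.0934), scan day (−1.44, 0.0608), position (−1.96, 0.321) or replicate number (−1.90, 0.27) as a block, by the methods' t-test (adjusted p = 0.324) and without slide 5 (−0.98, limma adjusted p = 0.483). Between doses 0 of the 29 were called, with 1, 4 and 1 at an unadjusted p under 0.05 on days 4, 7 and 12, beside 2.38%, 6.08% and 4.92% of all probes, and 0 by the methods' t-test.

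Because S100G belongs to absorptive enterocytes, the markers of these cells and of other cells in the bowel wall were read on the same arrays. Of 15 enterocyte genes, 10 were on the array and tested, and all were well above background on at least 1 array of every group. On day 4 after 6.7 Gy 3 of the 10 were called lower (FABP1, RBP2 and TREH) and after 7.4 Gy 2 (FABP1 and RBP2), with medians of −0.48 and −0.66. Of all probes tested, 0.731% and 0.888% were called lower on day 4, and 1.25% and 1.71% higher, for 6.7 Gy and 7.4 Gy, and the counts of the lists that follow stand beside the same shares. The log2 of their summed signal ran from 9.31 to 9.53 in control, 8.45 to 8.72 on day 4 after 6.7 Gy and 8.36 to 8.87 after 7.4 Gy. It ran from 8.40 to 9.43 and from 8.23 to 9.09 on day 7, and from 8.88 to 9.09 and from 8.69 to 8.94 on day 12, for 6.7 Gy and 7.4 Gy in turn. FABP1, the liver-type fatty acid-binding protein, had means of 7.77 in control, 6.20 after 6.7 Gy (limma adjusted p = 0.00754) and 6.53 after 7.4 Gy (limma adjusted p = 0.0129) on day 4. ANPEP, a brush-border peptidase, was at 7.22, 7.26 and 7.11 and was not called. On day 7 ANPEP had its lowest means, 6.44 after 6.7 Gy and 6.01 after 7.4 Gy. Lactase (LCT), also 1 of the 10 and named again below, was higher on day 4. Its mean was 4.09 in control, 4.68 after 6.7 Gy and 4.87 after 7.4 Gy, with no call.

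The changes of S100G and of the enterocyte sum can be set side by side. The sum adds levels on the linear scale, so its brightest probes weigh most. These are FABP1, RBP2 and ANPEP, at 7.77, 7.62 and 7.22 in control. The sum differed from control by −0.78 and −0.75 on day 4, −0.54 and −0.72 on day 7, and −0.40 and −0.57 on day 12, for 6.7 Gy and 7.4 Gy. The change of S100G minus that of the sum was −2.55 and −3.01 on day 4, 0.17 and −0.08 on day 7, and −2.97 and −0.76 on day 12. The values of day 4 and day 7 rest on the S100G levels by which the genes were chosen, so they are a description and support nothing. What part a loss of enterocytes has in the levels of S100G was not tested.

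Genes of the bowel region were also read, since S100G belongs to the upper small bowel. Of 4 genes of the distal small bowel, 2 were called higher on day 4 after 6.7 Gy (FABP6 and the ileal bile acid transporter SLC10A2), 0 after 7.4 Gy by limma (2 at an unadjusted p under 0.05, among them FABP6 at an adjusted p of 0.0506) and 1 on day 12 after 6.7 Gy (FABP6). Their summed level ran from 4.40 to 4.86 in control, 3.65 to 5.69 on day 4 after 6.7 Gy, 4.36 to 6.37 on day 4 after 7.4 Gy, 4.45 to 5.33 and 3.95 to 4.96 on day 7, and 5.75 to 6.25 and 4.82 to 5.16 on day 12, for 6.7 Gy and 7.4 Gy. FABP6, the bile acid-binding protein of the ileum, and SLC10A2 are named after their values were seen. The other 2 distal genes, SLC51A and SLC51B, which form the basolateral exporter of bile acids, differed on day 4 by −0.63 and −0.22 after 6.7 Gy and by −0.37 and 0.11 after 7.4 Gy, with no call. The control levels of FABP6 were −2.19, −1.25, −2.70 and −2.40. The day 4 levels were 4.97, 4.44, 2.38 and −0.44 for 6.7 Gy and 5.88, 3.12, −0.34 and 1.26 for 7.4 Gy. All lay above control, as for 6.68% and 7.27% of all probes tested. The day 7 levels were −0.85, −1.87, 3.22 and −0.64 for 6.7 Gy and −2.05, 1.78, −1.63 and −1.83 for 7.4 Gy. FABP6 rose by 4.97 on day 4 after 6.7 Gy (limma adjusted p = 0.0381) and by 7.28 on day 12 after 6.7 Gy (5.29 and 5.00, limma adjusted p = 0.00401). On day 12 after 7.4 Gy it was 1.22 and 0.95. What part a difference in the site sampled has in the S100G levels was not tested.

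Of 6 genes of the proximal small bowel, 1 was called lower on day 4 after 6.7 Gy (GATA4) and 2 after 7.4 Gy (GATA4 and ONECUT2), both transcription factors and both named after their values were seen. The summed level of these 6 ran from 5.10 to 5.32 in control, 4.97 to 6.05 on day 4 after 6.7 Gy and 5.21 to 6.13 after 7.4 Gy. By the rule for naming, LCT, the lactase of the brush border, and SLC40A1, the iron exporter, differed on day 4 by 0.59 and 0.13 after 6.7 Gy and by 0.79 and 0.42 after 7.4 Gy, with no call.

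Of the 3 genes tested from the crypt base, where stem cells lie, 1 was called higher on day 4 after 6.7 Gy (ASCL2) and 2 after 7.4 Gy (ASCL2 and OLFM4), and the summed level ran from −1.30 to −0.71 in control, −0.59 to 1.80 after 6.7 Gy and 0.79 to 1.44 after 7.4 Gy. Of 8 genes of epithelium in general, 1 was called higher (KRT18) and 1 lower (VIL1) on day 4 after 6.7 Gy and 0 after 7.4 Gy (4 at an unadjusted p under 0.05), with sums of 7.76 to 8.15 in control and 7.46 to 8.07 and 7.51 to 8.00 on day 4. Limma called 0 of the 4 goblet cell, 3 smooth muscle, 4 T cell, 2 B cell and 4 macrophage genes tested on day 4 at either dose, with 3 of these 17 at an unadjusted p under 0.05 after 6.7 Gy and 5 after 7.4 Gy. Of all probes tested, 21.2% and 24.5% passed that limit on day 4, shares that also stand beside the epithelial and distal counts. The methods' t-test called 0 in the lists of this paragraph other than the crypt base and 0 of the distal genes. Beside the low S100G levels of day 4, the summed smooth muscle level ran from 8.17 to 8.66 in control, 8.40 to 8.92 after 6.7 Gy and 8.47 to 9.17 after 7.4 Gy. The summed B cell level ran from −0.15 to 0.47 in control, −0.68 to −0.24 after 6.7 Gy and −0.37 to −0.14 after 7.4 Gy, and the summed macrophage level from 2.59 to 3.22, 2.94 to 3.51 and 3.11 to 3.27. The part of these cells in the S100G values was not tested.

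Across the 24 arrays S100G varied together with the other members, as it did with some genes outside the set. These correlations are descriptions over arrays that share their groups, slides and scaling, and no p is given. They rest in part on the S100G levels by which the genes were chosen. Pearson's r between S100G and VDR was 0.70 over the 24 arrays and 0.641 after the mean of each group was taken off. With the ATP2B1 probes it was 0.869 (0.749 with group means taken off) for A_01_P1733506, 0.811 (0.613) for A_01_P1681971 and 0.628 (0.495) for A_01_P013414. Arrays of one group with a lower S100G thus also tended to have lower VDR and ATP2B1 levels. Of the genes read beside it, r with S100G was 0.869 for RBP2 (0.742 with group means taken off) and 0.679 for FABP1 (0.231). It was −0.245 for ANPEP (0.646) and −0.715 for FABP6 (−0.258).

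**Figure D5:**
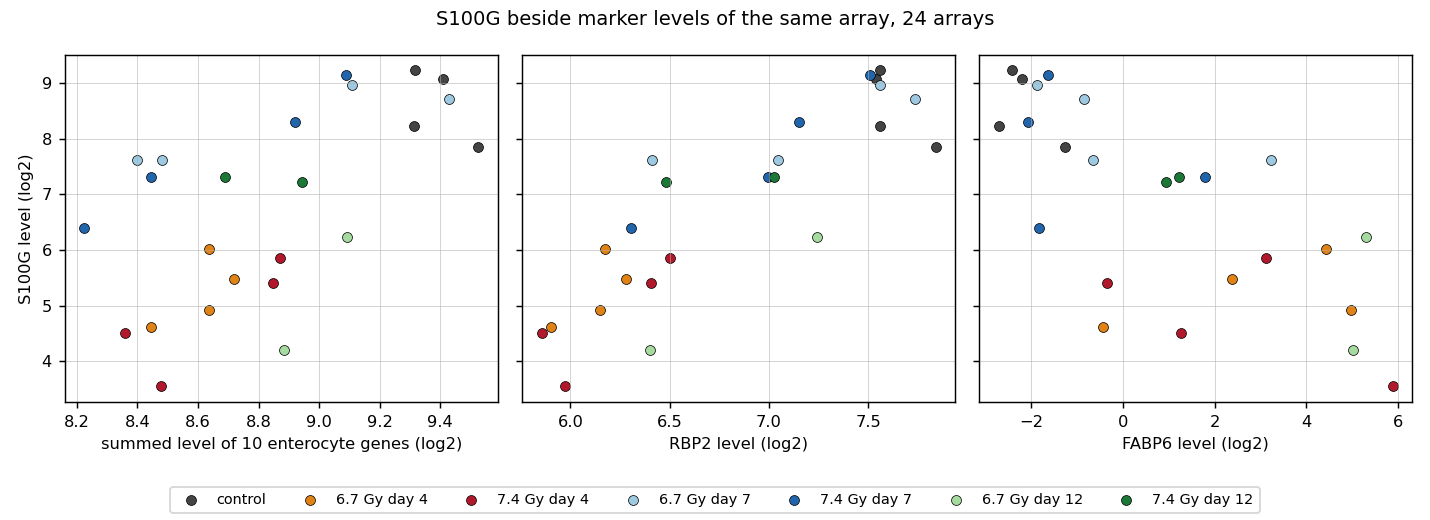
Level of S100G (y axis, log2) against the summed level of the 10 enterocyte genes, the RBP2 level and the FABP6 level (x axes, log2), with 1 point per array coloured by group. The 8 day 4 arrays lie at S100G levels of 3.55 to 6.02, with enterocyte sums of 8.36 to 8.87 and FABP6 levels of −0.44 to 5.88.

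The genes whose levels over the 24 arrays were most like those of S100G, among 7376 genes with 1 probe each, were SDSL (r = 0.902), GSTK1 (0.898), NDUFS7 (0.89), ILVBL (0.874) and RBP2 (0.869). SDSL, a dehydratase of serine and threonine, had means of 3.78 in control, 3.19 and 2.94 on day 4 and 3.74 and 3.83 on day 7, for the lower and the higher dose in turn. RBP2, the retinol-binding protein of the enterocyte cytosol, went from 7.62 in control to 6.13 (limma adjusted p = 0.00296) and 6.18 (limma adjusted p = 0.00787) on day 4 and stood at 7.19 and 6.99 on day 7. NDUFS7, a subunit of respiratory complex I, went from 4.53 to 3.70 and 3.73 on day 4 and was at 4.63 and 4.48 on day 7. That these genes were low on day 4 and high on day 7 follows from how they were picked.

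The most opposite patterns were those of ETV5 (r = −0.818), CTRB2 (−0.80, listed by the authors as CTRB1) and IFI16 (−0.797). ETV5, a transcription factor of the ETS family, had means of −1.28 in control, −0.37 and −0.26 on day 4 and −0.76 and −0.68 on day 7. IFI16, a nuclear sensor of DNA, had means of −0.75 in control, 0.33 and 0.67 on day 4 and −0.80 and −0.35 on day 7.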

How the data were processed

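RNA of 24 jejunum samples, 1 per animal, was hybridised to Agilent rhesus arrays (6 slides of 4 arrays, 2 scan days). The authors read them with Agilent Feature Extraction 11.0.1.1, and the deposited scanner files give a background-subtracted processed signal, an intensity, for each spot. A second file of the authors, from GeneSpring, holds log2 values scaled to the 75th percentile and centred on the median of each entry, and gave the gene symbols and an alternative source of values. Spots of a probe were averaged here on the log2 scale, and non-uniform spots were left out where another remained. Levels are log2 minus the 75th percentile over all 43603 probes. Tests covered the 28168 probes (64.6%) that all arrays of some group detected well above background. limma 3.58.1 in R 4.3.3 compared each irradiated group with control on their own arrays. Days and doses were compared in 1 model of the 7 groups. Benjamini-Hochberg adjustment ran over all tested probes, and a call needed an adjusted p under 0.05 and at least a 2-fold difference. P-values set a mean difference against the spread between these samples. The tests were checked on simulated data. Symbols no longer in use were updated through RefSeq gene identifiers or accessions (3904 probes). No positions are given, because the arrays were annotated on rheMac2 and the RefSeq table on a later assembly.

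The members, gene lists and tests were chosen with earlier results of these data known. Named were all member probes, the pathway genes called against control or between days, the 2 genes of highest mean level in each cell or region list, and the 5 genes most and 3 genes least correlated with S100G. Further genes named are marked in the text or are those behind a count of 5 or fewer. The scanner files used here hold the median spot signal, so the normexp alternative (offset 50) used it in place of the mean. Groups, doses and days follow the sample labels, and a free-text field of the labels names a later last day. The deviations of samples that share a replicate number correlated at −0.164 to 0.238. Not every pair was above 0.1 in any comparison, so no pairing was used. In 6.7 Gy day 7 against control, where the numbers also share slides, the 4 values were 0.163, 0.238, 0.0949 and 0.149.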

Additional observations from a re-analysis of the deposited data

Results flagged for a closer look

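In 25 groups of 4 arrays, the highest or lowest value was set against the others, and Dixon's 95% critical value for 4 values was used for the gap to the nearest other array over the range, which chance exceeds in about 1 in 20 groups. It was exceeded by 2 arrays. For VDR, control replicate 2 stood at 0.336, with a gap of 0.852 of the range of the 4 controls. For ATP2B1 probe A_01_P013414, replicate 1 of day 7 after 7.4 Gy stood at 2.14, with a gap of 0.861 of the range of its group.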

How the results depend on the processing

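Limits come first from the number of arrays, with 2 per dose on day 12, from the 4 controls at position 1 of 4 slides, and from the low share of probes detected on slide 5, whose arrays were left out in a setting chosen after seeing the data. Across 17 other settings, S100G differed from control on day 4 by −3.57 to −3.12 after 6.7 Gy and −3.96 to −3.34 after 7.4 Gy, and with 1 array left out by −3.58 to −3.12 and −4.10 to −3.34. The S100G differences that moved most were those of 6.7 Gy on day 12, which with 1 array left out ran from −4.38 to −2.36 against control and from −1.05 to 0.97 against day 4. With 1 array left out, the S100G dose difference on day 7 ran from −0.89 to 0.027 and VDR on day 7 after 6.7 Gy from −0.021 to 0.16, and the latter was −0.24 with the position block. On day 4, ATP2B1 probe A_01_P1733506 ran from −1.05 to −0.79 after 6.7 Gy and −1.22 to −0.96 after 7.4 Gy with 1 array left out, and passed both limits after 6.7 Gy at −1.03 with slide as a fixed block. After 7.4 Gy it was −0.99 with the percentile over detected probes, −0.80 with the position block, and −1.06 but above the limit on p with no filter (limma adjusted p = 0.0872) and by the methods' t-test (adjusted p = 0.0552). Probe A_01_P013414 passed after 7.4 Gy at −1.02 with slide fixed and −1.03 with scan day as a block. Of the 4 VDR and ATP2B1 probes, after 6.7 Gy 1 was called with slide fixed and 0 to 1 with 1 array left out, the 1 being without control replicate 2. After 7.4 Gy the count was 2 with slide fixed and with scan day, 0 with the percentile over detected probes, no filter, the position block, the t-test and 1 probe per symbol, and 0 to 1 with 1 array left out.

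Of the 29 other pathway genes, the count on day 4 after 6.7 Gy was 0 with no filter, the position block and the t-test, 2 without slide 5, and 1 to 2 with 1 array left out (2 without 6.7 Gy day 4 replicate 1). After 7.4 Gy it was 0 with no filter and the position block. On day 7 after 7.4 Gy it was 1 with normexp and with eBayes trend and robust, 2 with only probes detected on all arrays, 1 model of the 7 groups, slide fixed, slide random and scan day (SLC30A10 and SLC20A1, both lower), and 0 to 1 with 1 array left out (1 without 7.4 Gy day 7 replicate 3). From day 4 to day 7 after 6.7 Gy it was 1 without slide 5 and 0 to 1 with 1 array left out (1 without 6.7 Gy day 4 replicate 1). After 7.4 Gy it was 1 with only probes detected on all arrays and with slide fixed, and 0 to 1 with 1 array left out (1 without 7.4 Gy day 4 replicate 4 or day 7 replicate 3). From day 4 to day 12 after 7.4 Gy it was 2 with normexp, the percentile over detected probes, quantile normalization, slide random, trend and robust and 1 probe per symbol, 0 with no filter, only the arrays of both groups, slide fixed, the position block, scan day, the t-test and without slide 5, and 0 to 3 with 1 array left out (3 without 7.4 Gy day 12 replicate 2). The cause of these shifts was not tested.

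Replicate numbers were not taken to pair the samples. With the replicate block, on day 4 the pathway count after 6.7 Gy was 0, the count of VDR and ATP2B1 probes after 7.4 Gy was 0 and ATP2B1 probe A_01_P1733506 was at −1.06 (limma adjusted p = 0.082). VDR on day 12 after 7.4 Gy was at 0.017, and the pathway count from day 4 to day 12 after 7.4 Gy was 0. Over all probes the block lowered the number called on day 4 after 6.7 Gy from 559 to 93.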
